A study of Mus musculus with 9 samples.

Results

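Small leucine-rich proteoglycans are secreted matrix proteins built around a curved stack of leucine-rich repeats. The group described here held 10 genes, taken by name from a count table of 56748 genes: Dcn (decorin), Bgn (biglycan), Aspn (asporin), Fmod (fibromodulin), Lum (lumican), Prelp, Omd (osteomodulin), Ogn (osteoglycin), Epyc (epiphycan) and Chad (chondroadherin). All 10 were found once each and all 10 were among the 15502 genes with enough counts to be tested. RNA sequencing was done on 9 libraries of wild-type (WT) mouse knee chondrocytes released with collagenase D and kept in culture. In 3 libraries the cells had been given interleukin-1β (IL-1β) together with recombinant SFRP5, in 3 they had been given IL-1β alone, and 3 were untreated controls. IL-1β is a cytokine used to provoke inflammation and matrix loss in cartilage cells, and SFRP5 is a secreted antagonist of Wnt ligands. The labels state no dose, no time, no age of the mice and no group with SFRP5 alone, so what SFRP5 does without IL-1β cannot be read from these libraries. They do not say whether libraries of a group were separate animals or cultures, so the p-values cover only how these libraries vary, and that spread may be technical.

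In cartilage these proteins sit on the surface of collagen fibrils, where they set fibril thickness and spacing, and several of them bind growth factors. By structure, Dcn, Bgn and Aspn belong to class I, Fmod, Lum, Prelp and Omd to class II, and Ogn and Epyc to class III, while Chad is placed in class IV. Decorin and biglycan carry chondroitin or dermatan sulfate chains, fibromodulin, lumican and osteomodulin can carry keratan sulfate, and asporin, Prelp and chondroadherin are known without a glycosaminoglycan chain. Fragments of these proteins accumulate in arthritic cartilage, and soluble biglycan is known as a ligand of Toll-like receptors.

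The total count was 15795985 to 20688963 per library with IL-1β and SFRP5, 17833535 to 18717286 with IL-1β and 17960438 to 20107339 in control, and 3 counts in a library equalled 0.135 to 0.195 counts per 1000000 (CPM). None of 11 chondrocyte markers was at 0 in any group. The same was true of the fibroblast and macrophage marker lists, so this does not by itself identify the cells. The summed level of the chondrocyte markers was 25847 to 27146 CPM with IL-1β and SFRP5 and 20407 to 21488 CPM with IL-1β. In control it was 105238 to 107578 CPM. Col2a1 alone gave 20767 CPM with IL-1β and SFRP5, 15406 CPM with IL-1β and 74496 CPM in control, on the mean. All 11 chondrocyte markers were called lower with IL-1β than in control by the test described below, as were 40.4% of all tested genes. In such bulk samples, fewer cells of a type and less RNA per cell cannot be told apart.

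The neighbouring genes Aspn, Omd and Ogn lie in a row on the same strand of chromosome 13, and they were the members with the lowest levels after IL-1β relative to control. The 250 bases before the RefSeq start of each are shown because these neighbours fell together. They are read 5′ to 3′ on the plus strand of GRCm38.p6, at chr13:49544193-49544442 for Aspn, chr13:49582212-49582461 for Omd and chr13:49607765-49608014 for Ogn, and capitals mark matches to the motifs named after them.
Aspn: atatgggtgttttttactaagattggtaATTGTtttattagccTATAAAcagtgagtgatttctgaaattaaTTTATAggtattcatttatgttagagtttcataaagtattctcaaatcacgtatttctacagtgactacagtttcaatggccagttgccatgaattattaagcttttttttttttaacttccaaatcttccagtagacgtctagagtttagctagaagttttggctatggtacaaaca
Omd: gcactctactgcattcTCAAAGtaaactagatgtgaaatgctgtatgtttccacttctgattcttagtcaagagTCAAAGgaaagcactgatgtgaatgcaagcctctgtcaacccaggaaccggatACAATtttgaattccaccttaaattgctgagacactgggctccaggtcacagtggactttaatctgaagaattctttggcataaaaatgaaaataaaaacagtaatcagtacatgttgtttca
Ogn: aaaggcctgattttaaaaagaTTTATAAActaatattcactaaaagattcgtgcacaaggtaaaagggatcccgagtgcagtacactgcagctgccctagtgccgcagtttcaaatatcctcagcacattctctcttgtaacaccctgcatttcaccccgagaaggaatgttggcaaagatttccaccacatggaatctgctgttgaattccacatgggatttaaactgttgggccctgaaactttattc
Searched on both strands were TATAAA, the AP-1 motif TGANTCA, the C/EBP motif TTGCNNAA, the TCF/LEF motif CTTTGA, the SOX motif ACAAT and the NF-κB motif. Windows of the same length before all 32851 listed starts held them in 12.4%, 6.75%, 9.56%, 13.8%, 27.7% and 3.9% of cases, in that order. TATAAA matched at 2 overlapping places before Ogn and at 2 places before Aspn, counting both strands. CTTTGA matched at 2 places before Omd. ACAAT matched at 1 place each before Aspn and Omd. The letters searched for AP-1, C/EBP and NF-κB were in none of the 3 windows. RefSeq windows were listed for 8 of the 10 genes, and a match is a description of letters only.

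Levels below are CPM scaled with TMM factors, which correct for differences in RNA composition, and tests are edgeR's quasi-likelihood test with 1 fit over the 9 libraries. Adjusted p-values are Benjamini-Hochberg over all 15502 genes, with a call under 0.05, and log2 fold changes from this fit are given with their standard error (SE). The SE is left out for Aspn, Omd and Ogn against control, where it is too small. For other genes with few counts in a group the SE given can be too small as well.

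The comparison of IL-1β with control addressed the response to the cytokine. Of 10 members 3 rose and 7 fell with IL-1β relative to control, where 78.9% of all tested genes were called, 38.5% as higher and 40.4% as lower. The rises were in Dcn, Lum and Bgn. The falls ranged from Chad at 1.17-fold to Aspn and Ogn at about 130-fold. The median log2 change of the members was −0.996, against −0.03 over all tested genes, whose median absolute change was 0.75. The groups did not overlap for any of the 10 members, and 80% of all tested genes had no overlap either.

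**Figure D1:**
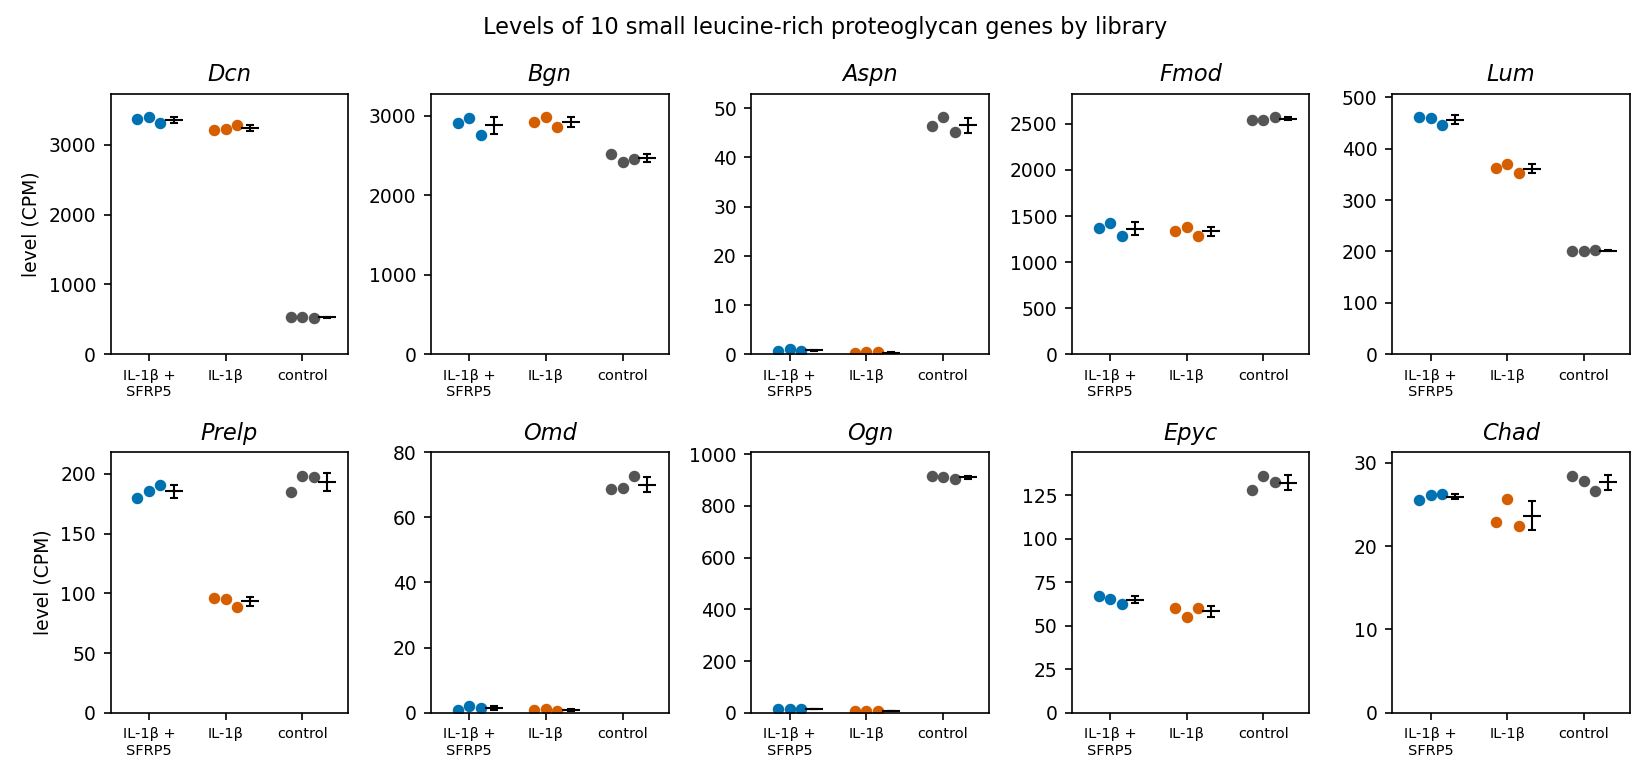
Level of each gene in CPM (linear axis from 0) for the 3 libraries with IL-1β and SFRP5, the 3 with IL-1β and the 3 controls, with the mean and SD of each group as a black cross. Dcn, Bgn and Lum were higher in both treated groups than in control (Bgn not with library size alone as the scaling), Aspn, Omd and Ogn were close to 0 in both, and Prelp with SFRP5 lay in the range of 180 to 191 CPM near its controls.

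Dcn, whose product coats collagen fibrils and binds TGF-β, showed the largest rise of the family. It stood at 3218, 3223 and 3285 CPM in the IL-1β libraries, against 533, 528.3 and 522 CPM in control. All IL-1β libraries were far above all controls. The mean was 3242 ± 37.4 CPM with IL-1β and 527.8 ± 5.51 CPM in control (SD, n = 3 each), 6.14-fold higher, with a log2 change of 2.62 ± 0.03 (SE, adjusted p = 4.94e-29 in edgeR's test). Over all tested genes, 956 or 6.17% rose at least as far.

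Lum, whose product regulates fibril growth and binds several immune receptors, rose less. Its levels were 361.7, 370 and 352 CPM with IL-1β, against 201.6, 200.4 and 202.7 CPM in control. The lowest IL-1β library was well above the highest control. The log2 change was 0.84 ± 0.04 (SE, adjusted p = 9.3e-17 in edgeR's test), 1.79-fold.

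Bgn, which encodes the close relative of decorin, changed little. It had 2922, 2981 and 2863 CPM with IL-1β, against 2520, 2417 and 2455 CPM in control. The groups were apart by 1.19-fold on the mean. The log2 change was 0.25 ± 0.03 (SE, adjusted p = 1.55e-07 in edgeR's test), but with library size alone as the scaling it was 6e-04 and not called (adjusted p = 0.985). That scaling moved the median of all genes by −0.24 from the value with TMM, and upper-quartile factors moved it by −0.15, so the rise of Bgn is one relative to the other genes.

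The sharpest falls were those of the chromosome 13 genes. Ogn, which encodes osteoglycin (mimecan), a class III member of fibrous and skeletal matrix, had 6.56, 7.99 and 6.43 CPM with IL-1β, against 916.8, 910 and 904.5 CPM in control. Every IL-1β library was far below every control. The mean of 7 ± 0.866 CPM with IL-1β was 130-fold lower than the 910.5 ± 6.19 CPM of control (SD, n = 3 each), a log2 change of −7.02 (adjusted p = 1.07e-30 in edgeR's test). Only 78 of the tested genes, 0.503%, fell at least as far in that fit.

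Aspn encodes asporin, which binds TGF-β and whose human gene carries an aspartate repeat studied in osteoarthritis. It had 4, 6 and 8 counts with IL-1β, against 917, 1067 and 888 counts in control. The means were 0.354 ± 0.107 CPM with IL-1β and 46.5 ± 1.55 CPM in control (SD, n = 3 each), 131-fold lower (log2 −7.00, adjusted p = 1.82e-23 in edgeR's test). Omd, known from bone and tooth matrix, had 15, 17 and 11 counts with IL-1β, against 1357, 1525 and 1433 counts in control. It was 81.9-fold lower (log2 −6.35, adjusted p = 2.21e-23 in edgeR's test), and 128 tested genes or 0.826% fell at least as far. At counts this small, the fold of Aspn and Omd is known only roughly.

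Fmod, Prelp and Epyc fell about 2-fold. Fmod, whose product binds collagen and guides cross-linking of fibrils, had 1333, 1380 and 1287 CPM with IL-1β, against 2544, 2545 and 2573 CPM in control (log2 −0.94 ± 0.04 SE, adjusted p = 4.2e-18 in edgeR's test). Prelp, which links collagen to heparan sulfate chains, had 95.6, 95.2 and 88.6 CPM with IL-1β, against 184.6, 198.4 and 196.9 CPM in control (log2 −1.05 ± 0.05 SE, adjusted p = 6.81e-17 in edgeR's test). In both genes the groups lay well apart.

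Epyc, a proteoglycan of growth plate cartilage, had 60.1, 54.9 and 60.5 CPM with IL-1β, against 128, 136.4 and 132.6 CPM in control (log2 −1.18 ± 0.05 SE, adjusted p = 2.98e-17 in edgeR's test). Chad, whose product attaches chondrocytes to collagen through an integrin, had 22.8, 25.6 and 22.4 CPM with IL-1β, against 28.4, 27.9 and 26.6 CPM in control. The groups of Chad did not overlap but nearly touched. Its log2 change was −0.23 ± 0.07 (SE, adjusted p = 0.00583 in edgeR's test), and without IL-1β library 3 it was −0.17 and no longer called (adjusted p = 0.0587).

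The effect of adding SFRP5 to stimulated cells was addressed by setting both treated groups against each other. Of 10 members 6 rose and 0 fell with IL-1β and SFRP5 relative to IL-1β alone, where 31.3% of all tested genes were called, 15.6% as higher and 15.7% as lower. The 6 were Prelp, Ogn, Lum, Aspn, Omd and Epyc. The count of 0 that fell came from edgeR; at an unadjusted p under 0.05 it was also 0, and DESeq2 called 0 as well. The median log2 change of the members was 0.24, against 0.01 over all tested genes. The groups did not overlap for Dcn, Lum, Prelp, Ogn, Aspn and Epyc, and 40.8% of all tested genes had no overlap. Without SFRP5 library 2 the number that rose was 3, because Aspn, Omd and Epyc lost their calls. It was 9 with library size alone, where Dcn, Fmod and Chad were called as well, and 4 in a fit of only the 6 libraries compared. Of the 11 chondrocyte markers 7 rose in the same comparison and 0 fell in edgeR's test (0 fell at an unadjusted p under 0.05, and 0 with DESeq2), and their part in the rise of these members was not tested.

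**Figure D2:**
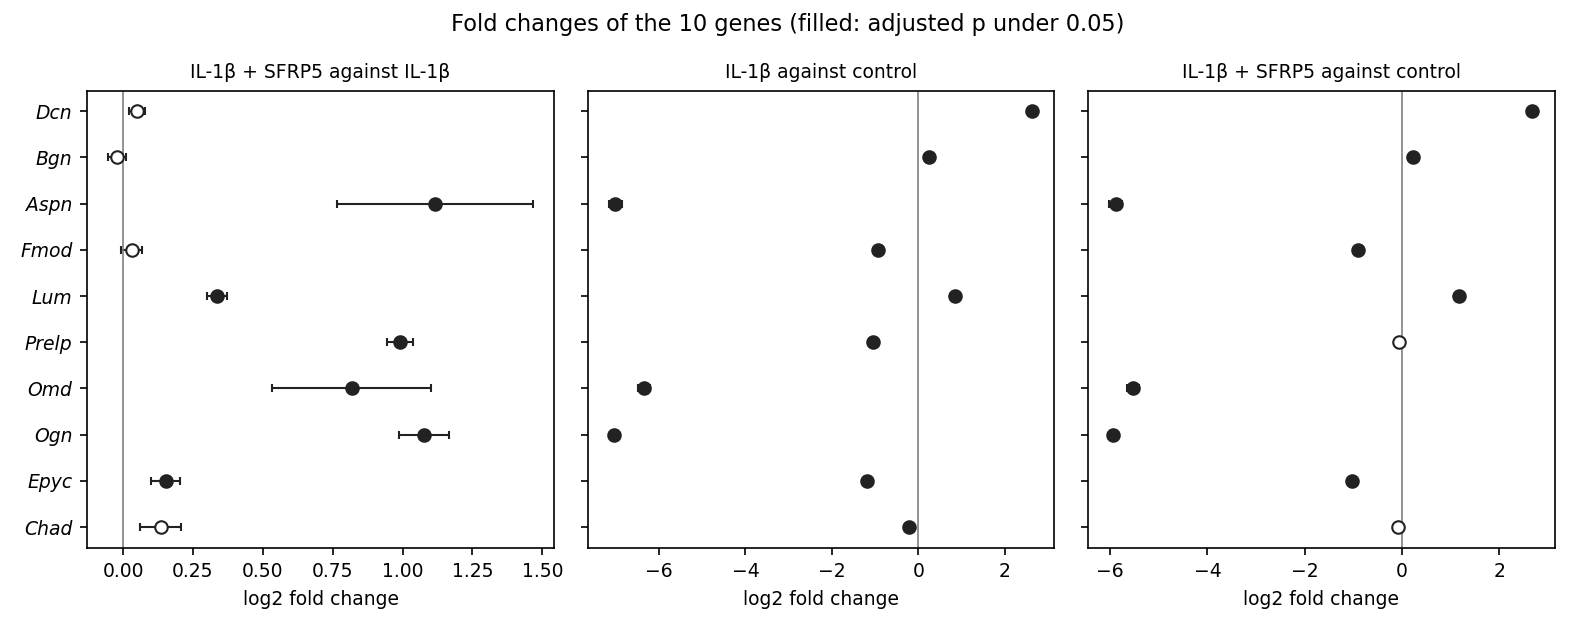
Log2 fold change of each gene with its SE for IL-1β with SFRP5 against IL-1β, IL-1β against control, and IL-1β with SFRP5 against control, with filled points called at an adjusted p under 0.05. The SE drawn for Aspn, Omd and Ogn against control is too small, and so is that for Aspn between the treated groups. The scales differ between panels: the left panel ends near 1.5, and Prelp is the filled point at 0.99 there that is open at −0.06 on the right.

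Prelp had the lowest adjusted p-value of the members in this comparison. It had 179.8, 185.2 and 190.5 CPM with IL-1β and SFRP5, against 95.6, 95.2 and 88.6 CPM with IL-1β. Every library with SFRP5 lay far above every library with IL-1β alone. The log2 change was 0.99 ± 0.05 (SE, adjusted p = 9.34e-15 in edgeR's test), 1.99-fold. Against control, at 193.3 ± 7.58 CPM, the mean of 185.2 ± 5.35 CPM with SFRP5 (SD, n = 3 each) gave a log2 difference of −0.06 ± 0.04 that was not called (SE, adjusted p = 0.204 in edgeR's test). The libraries with SFRP5 overlapped with control. With upper-quartile factors this difference was −0.20, and with library size alone −0.23, both called (adjusted p = 0.000262 and 5.37e-05).

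Ogn rose 2.10-fold on the mean and stayed at a low level. It had 14.6, 13 and 16.5 CPM with IL-1β and SFRP5, against 6.56, 7.99 and 6.43 CPM with IL-1β, and no library overlapped. The log2 change was 1.08 ± 0.09 (SE, adjusted p = 5.9e-10 in edgeR's test). It remained far from control, at 61.9-fold lower with IL-1β and SFRP5 (log2 −5.95, adjusted p = 6.21e-30 in edgeR's test).

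Lum, already raised by IL-1β, was higher again with SFRP5. It had 461.3, 460.5 and 445.8 CPM with IL-1β and SFRP5, against 361.7, 370 and 352 CPM with IL-1β. The groups lay apart, and the log2 change was 0.34 ± 0.04 (SE, adjusted p = 6.71e-08 in edgeR's test). Against control the group with SFRP5 was 2.26-fold higher (log2 1.18 ± 0.04 SE, adjusted p = 7.79e-20 in edgeR's test). Lum was the one member for which the 3 group means were ordered with SFRP5 above IL-1β and IL-1β above control, both steps being called.

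The calls of Aspn, Omd and Epyc rested on few counts or a small difference. Aspn had 15, 15 and 11 counts with IL-1β and SFRP5, against 4, 6 and 8 with IL-1β (log2 1.12 ± 0.35 SE, adjusted p = 0.0165 in edgeR's test). The call of Aspn was lost without IL-1β library 1 (adjusted p = 0.094) or SFRP5 library 2 (adjusted p = 0.0834), and with only the 6 libraries compared (adjusted p = 0.0682).

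Omd had 20, 34 and 25 counts with IL-1β and SFRP5, against 15, 17 and 11 with IL-1β (log2 0.82 ± 0.28 SE, adjusted p = 0.0296 in edgeR's test). Scaled for depth the groups of Omd overlapped, at 0.986 to 2.21 CPM with SFRP5 and 0.626 to 1.03 CPM with IL-1β. Its call was lost without IL-1β library 3 (log2 0.63, adjusted p = 0.135), SFRP5 library 2 (log2 0.50, adjusted p = 0.224) or SFRP5 library 3 (adjusted p = 0.0532), and with only the 6 libraries compared (adjusted p = 0.0924). Epyc had 66.9, 65.3 and 62.8 CPM with IL-1β and SFRP5, against 60.1, 54.9 and 60.5 CPM with IL-1β (log2 0.15 ± 0.05 SE, adjusted p = 0.0269 in edgeR's test). The call of Epyc was lost without IL-1β library 2 (adjusted p = 0.173), SFRP5 library 1 (adjusted p = 0.121) or SFRP5 library 2 (adjusted p = 0.0599), and with DESeq2 (adjusted p = 0.057).

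Dcn, Bgn and Fmod, the members highest per kilobase in both treated groups, were not called between them, nor was Chad. Dcn had 3366, 3396 and 3306 CPM with IL-1β and SFRP5, against 3218, 3223 and 3285 CPM with IL-1β, a log2 difference of 0.05 ± 0.03 (SE, adjusted p = 0.208 in edgeR's test). Bgn averaged 2880 ± 108 CPM with IL-1β and SFRP5 and 2922 ± 59 CPM with IL-1β (SD, n = 3 each), a log2 difference of −0.02 ± 0.03 (SE, adjusted p = 0.679 in edgeR's test). The sign for Bgn turned with library size alone (0.06) and without SFRP5 library 3 (0.01), and its groups overlapped.

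Fmod averaged 1362 ± 69 CPM with IL-1β and SFRP5 and 1333 ± 46.5 CPM with IL-1β (SD, n = 3 each), with overlap and a log2 difference of 0.03 ± 0.04 (SE, adjusted p = 0.575 in edgeR's test) that was −0.0034 without SFRP5 library 2. Chad had 25.5, 26.1 and 26.2 CPM with IL-1β and SFRP5, against 22.8, 25.6 and 22.4 CPM with IL-1β (log2 0.13 ± 0.07 SE, adjusted p = 0.175 in edgeR's test). With library size alone Dcn, Fmod and Chad were called higher with SFRP5 (adjusted p = 0.000598, 0.00902 and 0.0238).

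Set against control, the cells with IL-1β and SFRP5 share their libraries with the comparisons above. Of 10 members 3 rose and 5 fell with IL-1β and SFRP5 relative to control, where 76.3% of all tested genes were called, 37.3% as higher and 39% as lower. Prelp and Chad were not called. The median log2 change of the members was −0.50, against −0.02 over all tested genes. Dcn was 6.36-fold and Bgn 1.17-fold higher with SFRP5 and IL-1β than in control (adjusted p = 4.79e-29 and 6.88e-07 in edgeR's test), although Bgn was not called with library size alone (log2 0.06, adjusted p = 0.0557). Fmod was 1.88-fold, Epyc 2.04-fold, Omd 45-fold and Aspn 59-fold lower (adjusted p = 9.94e-18, 5.13e-16, 5.27e-23 and 4.33e-23 in edgeR's test). Chad averaged 25.9 ± 0.35 CPM with SFRP5 and IL-1β and 27.6 ± 0.936 CPM in control (SD, n = 3 each), without overlap (78.2% of all tested genes had none) but with a log2 difference of −0.09 ± 0.07 (SE, adjusted p = 0.239 in edgeR's test). With upper-quartile factors and with library size alone Chad was called lower (log2 −0.23 and −0.26, adjusted p = 0.00575 and 0.00193).

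The genes of this family lie in groups along the chromosomes, and the positions in the table allowed the neighbours within 200 kb to be compared. These neighbours were added after the members' values were seen. On chromosome 13, Ecm2, a related leucine-rich matrix gene, Aspn, Omd and Ogn span 120 kb. Ecm2 also fell with IL-1β, to 2.9 ± 0.676 CPM against 8.97 ± 1.03 CPM in control (SD, n = 3 each), a log2 change of −1.63 ± 0.17 (SE, adjusted p = 5.37e-09 in edgeR's test). Nol8 and Iars beyond Ogn had log2 changes of 0.58 ± 0.06 and 0.39 ± 0.04 with IL-1β (SE). On the side of Ecm2, Fgd3 and Bicd2 were called higher with IL-1β, at 0.88 ± 0.10 and 0.35 ± 0.05 (SE, adjusted p = 6.53e-09 and 2.18e-07 in edgeR's test). Neither Tes3-ps, at 0.83 ± 0.43, nor Ippk, at −0.07 ± 0.10, on that side was called (SE, adjusted p = 0.078 and 0.535 in edgeR's test).

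Cenpp, a centromere gene on the opposite strand, spans 189 kb in the table and overlaps Aspn, Omd and Ogn. It had 0.353 ± 0.166 CPM with IL-1β and 4.22 ± 0.58 CPM in control (SD, n = 3 each), a log2 change of −3.55 ± 0.34 (SE, adjusted p = 7.41e-10 in edgeR's test). The library kit keeps strand, but whether the counting used it was not stated. Only the spans of the genes were compared, not their exons. Whether reads of Cenpp were mixed with those of the 3 members is therefore not known. Over the 9 libraries Cenpp had 309 counts, against 57247 for Ogn, 4437 for Omd and 2931 for Aspn, mostly from control. In the treated groups Cenpp was near Aspn. Cenpp averaged 0.59 CPM with IL-1β and SFRP5 and 0.353 CPM with IL-1β. In that order Aspn averaged 0.788 and 0.354 CPM, Omd 1.56 and 0.856 CPM, and Ogn 14.7 and 7 CPM. Chad in the same way overlaps Acsf2 on the opposite strand, a gene with 1068 counts over the 9 libraries.

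On chromosome 10, Dcn, Lum, Kera and Epyc span 203 kb and did not move together. With IL-1β relative to control Dcn and Lum rose while Epyc, at the other end of the row, fell, and Kera, a corneal member, had 3 counts in all. On chromosome 1, Prelp and Fmod lie with Optc in 151 kb. Both fell with IL-1β, and with SFRP5 relative to IL-1β Prelp differed by 0.99 ± 0.05 and Fmod by 0.03 ± 0.04 on the log2 scale (SE). Prelp overlaps a long noncoding RNA gene, Gm15851, on the opposite strand, which had 2.6 ± 0.122 CPM with IL-1β and SFRP5 and 1.59 ± 0.356 CPM with IL-1β (SD, n = 3 each; log2 0.71 ± 0.24 SE, adjusted p = 0.0274 in edgeR's test).

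**Figure D3:**
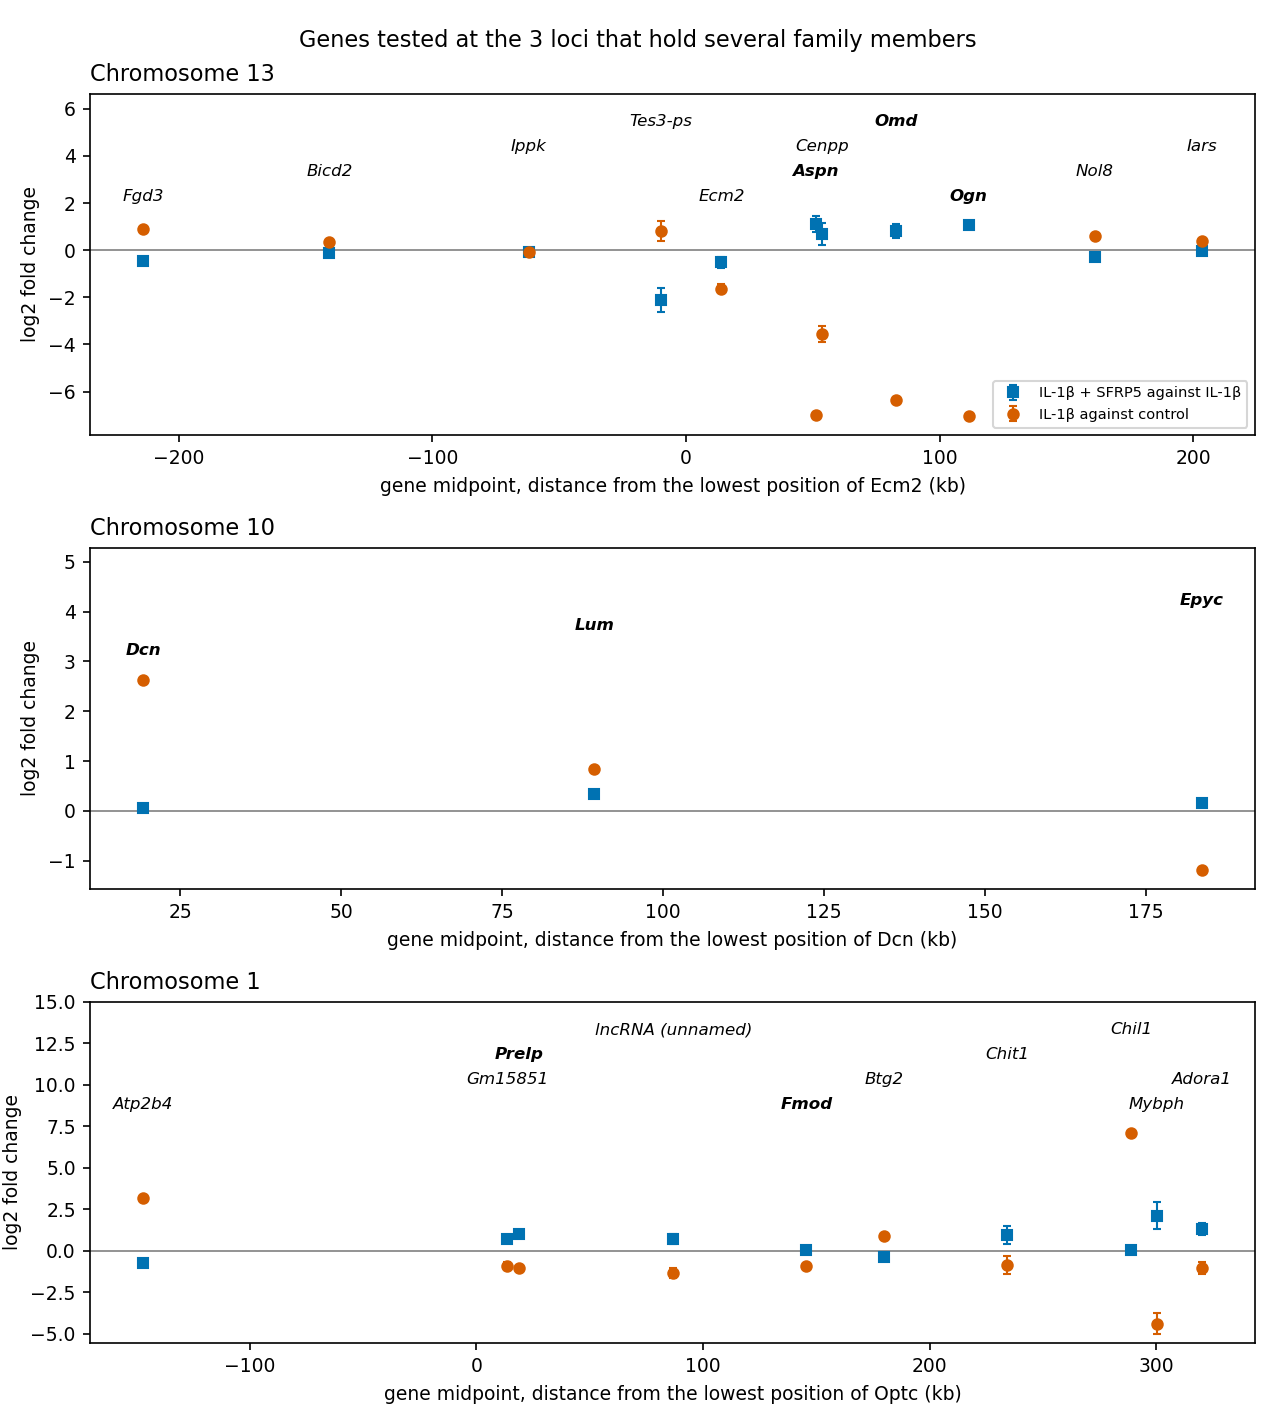
Log2 fold change with SE (vertical axis) of every tested gene within 200 kb of the 3 rows, against the distance of its midpoint from the lowest position of Ecm2, Dcn or Optc in kb, with members in bold, for IL-1β with SFRP5 against IL-1β (squares, with an SE that is too small for Aspn) and IL-1β against control (circles, with an SE that is too small for Aspn, Omd and Ogn). On chromosome 13 the circles of Aspn, Omd and Ogn lie between −6.35 and −7.02, those of Nol8 and Iars at 0.58 and 0.39.

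The direction of the family's sum depended on the scale. The 10 genes together took 0.799 to 0.832% of all counts with IL-1β and SFRP5, 0.74 to 0.748% with IL-1β and 0.78 to 0.786% in control. Scaled with TMM factors, their sum was 8347 ± 228 CPM with IL-1β and SFRP5, 8042 ± 88.1 CPM with IL-1β and 7127 ± 45.6 CPM in control (SD, n = 3 each), so IL-1β lay below control by the plain share and above it by scaled CPM. Divided by the table's gene lengths, the sum was 1744 ± 48.8 with IL-1β and SFRP5, 1651 ± 23.4 with IL-1β and 1877 ± 6.84 CPM per kilobase in control (SD, n = 3 each). To compare genes, counts were divided by length. With the table's gene lengths Dcn made up 33 ± 0.477% of the summed counts per kilobase with IL-1β and SFRP5, 33.6 ± 0.813% with IL-1β and 4.82 ± 0.0512% in control (SD, n = 3 each). Ogn made up 0.33 ± 0.048% with IL-1β and SFRP5, 0.165 ± 0.0181% with IL-1β and 18.9 ± 0.129% in control. Fmod held 23.6 ± 0.541% with IL-1β and SFRP5, 24.4 ± 0.511% with IL-1β and 41.2 ± 0.258% in control.

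These shares depend on the length used. The table gives Dcn 5838 and Bgn 6099 bases, whereas their principal GENCODE M21 transcripts have 1758 and 2419 bases. With transcript lengths, Dcn held 50% with IL-1β and SFRP5, 49.9% with IL-1β and 10.9% in control, and Fmod 11.4%, 11.6% and 29.8% in the same order. For Bgn even the direction turned. Its share was 27.1% with IL-1β and SFRP5, 29% with IL-1β and 21.5% in control by the table's lengths, and 31.2%, 32.7% and 37.1% by transcript lengths. Per kilobase of the table's lengths the order in control was Fmod at 772.5, Bgn at 404, Ogn at 354.8, Dcn at 90.4, Lum at 82.3, Prelp at 53.5, Epyc at 51.7, Omd at 31.1, Aspn at 19.8 and Chad at 16.4 CPM per kilobase. Prelp and Epyc were neighbours in it that differed by less than the SD of Prelp, though by more than that of Epyc (2.1 and 1.63, n = 3 each). By transcript lengths Bgn came first in control and Fmod after it. With IL-1β the order by the table's lengths began with Dcn at 555.4, Bgn at 479.1, Fmod at 403.3 and Lum at 147.6 CPM per kilobase, and ended with Ogn at 2.73, Omd at 0.38 and Aspn at 0.15. With IL-1β and SFRP5 it began and ended with the same genes, at 574.8, 472.3, 411.9 and 186.2 for the first and at 5.73, 0.693 and 0.335 for the last.

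**Figure D4:**
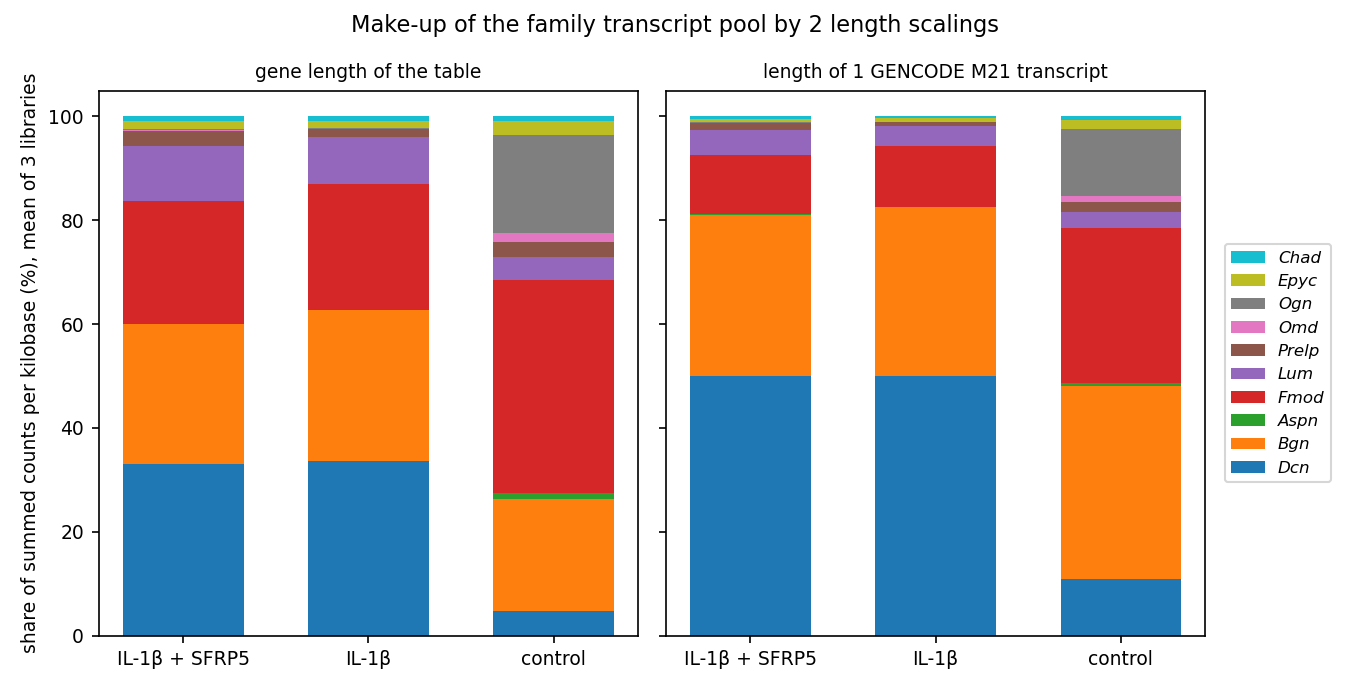
Mean share of each gene in the family's summed counts per kilobase (%), for IL-1β with SFRP5, IL-1β and control, with the gene lengths of the table on the left and GENCODE M21 transcript lengths on the right. Ogn is a visible band in control only, and the Dcn band is largest in both treated groups on the right at 50% and 49.9%.

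Other genes of the same superfamily moved in both directions. Of 9 listed, 7 had enough counts to be tested, and with IL-1β relative to control 4 rose and 3 fell. Beside this count and those of the lists below, 78.9% of all tested genes were called with IL-1β, 38.5% as higher and 40.4% as lower. With SFRP5 relative to IL-1β 31.3% were called, 15.6% as higher and 15.7% as lower. Tsku (tsukushi), which binds BMP and Wnt pathway proteins, rose with IL-1β to 145.2 ± 2.55 CPM, against 21 ± 1.43 CPM in control (SD, n = 3 each; log2 2.79 ± 0.06 SE, adjusted p = 1.74e-23 in edgeR's test). Podn (podocan) rose with IL-1β and again with SFRP5, at 43.6 ± 0.837 CPM with IL-1β and SFRP5, 30.1 ± 2.62 CPM with IL-1β and 20.5 ± 0.657 CPM in control (SD, n = 3 each). Chadl, a relative of chondroadherin, fell by 0.71 ± 0.06 and Podnl1 by 1.71 ± 0.32 (SE) on the log2 scale with IL-1β. Nyx, known from the retina, had 35 counts over the libraries with IL-1β and SFRP5, 145 over those with IL-1β and 23 over control, a log2 change with SFRP5 relative to IL-1β of −2.09 ± 0.38 (SE, adjusted p = 0.000101 in edgeR's test). For Nepn, IL-1β libraries held 51 counts in all and controls 1. The depth-scaled ratio was 62.2 (exact 95% interval 10.7 to 2504, counting error only, with the spread between libraries left out). With SFRP5 relative to IL-1β, Podn rose and Nyx and Nepn fell, the call of Nepn being lost with DESeq2 (adjusted p = 0.11) and with library size alone (adjusted p = 0.0565). Nyx and Nepn, both among the 4 that rose with IL-1β, passed the count filter only through the IL-1β libraries, where they were highest. Their rise with IL-1β and fall with SFRP5 are therefore not independent of that filter and are given as description only.

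The enzymes that build the sugar chains of decorin and biglycan were mostly lower with IL-1β. Of 15 tested genes of chondroitin and dermatan sulfate chains 12 fell and 2 rose, with a median log2 change of −1.23, and with SFRP5 relative to IL-1β 9 rose and 3 fell. Csgalnact1, which starts chondroitin chains, averaged 32.8 ± 3.03 CPM with IL-1β and SFRP5, 12.5 ± 0.828 CPM with IL-1β and 328.5 ± 3.89 CPM in control (SD, n = 3 each). Its log2 change with SFRP5 relative to IL-1β was 1.40 ± 0.07 (SE, adjusted p = 6.33e-14 in edgeR's test). Dse, the epimerase that turns chondroitin into dermatan sulfate, averaged 102.4 ± 2.68 CPM with IL-1β and SFRP5, 64 ± 1.73 CPM with IL-1β and 149.9 ± 2.89 CPM in control (SD, n = 3 each). Chsy3, a chondroitin synthase, fell by 3.13 ± 0.12 with IL-1β on the log2 scale, while the sulfotransferases Ust and Chst15 rose by 1.68 ± 0.09 and 0.89 ± 0.19 (SE).

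Of 7 genes that start or trim the linker to the core protein 4 fell and 0 rose with IL-1β relative to control in edgeR's test (1 rose at an unadjusted p under 0.05, and DESeq2 called 0 higher and 3 lower). Xylt1, a xylosyltransferase that begins such chains, fell by 1.95 ± 0.04 and Fam20b, a xylose kinase, by 1.52 ± 0.05 (SE) on the log2 scale with IL-1β. Of 11 tested genes of keratan sulfate and tyrosine sulfation 8 fell and 2 rose. Tpst1, which sulfates tyrosines such as those of fibromodulin, fell by 2.92 ± 0.07 and the keratan sulfotransferase Chst1 by 1.97 ± 0.43, while the sialyltransferase St3gal1 and Tpst2 rose by 2.89 ± 0.06 and 0.29 ± 0.08 (SE, log2 scale). Tpst2 was not called with upper-quartile factors (adjusted p = 0.108) or library size alone (adjusted p = 0.633). With SFRP5 relative to IL-1β, 2 of the 7 rose and 1 fell, and 4 of the 11 rose and 1 fell. These rises included Pxylp1, a phosphatase of the linker xylose, at a log2 change of 0.36 ± 0.12 (SE) that was not called with DESeq2 (adjusted p = 0.056), and B4galt1, a galactosyltransferase, at 0.48 ± 0.06 (SE).

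Of 16 collagens of the fibrils that these proteins bind 13 fell and 2 rose with IL-1β, and with SFRP5 relative to IL-1β 10 rose and 1 fell. The 2 that rose with IL-1β were Col5a2 and Col6a1, at log2 changes of 0.66 ± 0.03 and 0.18 ± 0.04 (SE), that of Col6a1 turning to −0.06 with library size alone. The deepest falls with IL-1β were those of Col11a1 and Col2a1, cartilage collagens, at log2 changes of −2.56 ± 0.04 and −2.27 ± 0.03 (SE). Both are also on the chondrocyte marker list. Col3a1, a collagen of pliable tissues, averaged 2378 ± 104 CPM with IL-1β and SFRP5, 1230 ± 11.7 CPM with IL-1β and 3056 ± 66.8 CPM in control (SD, n = 3 each). Col6a3, of the beaded collagen that biglycan and decorin bind, averaged 2973 ± 7.78 CPM with IL-1β and SFRP5, 2015 ± 31.5 CPM with IL-1β and 1932 ± 16.7 CPM in control (SD, n = 3 each). Its log2 change with SFRP5 relative to IL-1β was 0.56 ± 0.03 (SE, adjusted p = 5.48e-14 in edgeR's test).

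Of 14 tested proteases that are reported to cut members of the family 7 rose and 4 fell with IL-1β, and with SFRP5 relative to IL-1β 3 rose and 10 fell. The part of the list called with IL-1β was close to the 78.9% of all tested genes. With SFRP5 relative to IL-1β 31.3% of all tested genes were called. Without control library 1, IL-1β library 2 or IL-1β library 3, 2 fell with IL-1β in place of 4. Tll1 and Mmp14 had the largest falls, at log2 changes of −0.62 ± 0.24 and −0.35 ± 0.04 (SE). Mmp13, a collagenase that also cuts fibromodulin, averaged 3115 ± 25.9 CPM with IL-1β and SFRP5, 4119 ± 85.6 CPM with IL-1β and 32.9 ± 2.71 CPM in control (SD, n = 3 each). Mmp3 averaged 17338 ± 68.7 CPM with IL-1β and SFRP5 and 33944 ± 737 CPM with IL-1β (SD, n = 3 each), against 113 counts in all over the control libraries. Mmp12, an elastase, reached 2648 counts summed over IL-1β libraries, against 3 in controls. The depth-scaled ratio was 1076 (exact 95% interval 368 to 5223, counting error only, with the spread between libraries left out). Htra1, a serine protease that cuts decorin, biglycan and fibromodulin, averaged 211.4 ± 6.55 CPM with IL-1β and SFRP5, 167.3 ± 0.5 CPM with IL-1β and 208.7 ± 6.2 CPM in control (SD, n = 3 each), and rose with SFRP5 relative to IL-1β by 0.34 ± 0.04 on the log2 scale (SE, adjusted p = 3.92e-07 in edgeR's test).

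Of 30 tested receptors and ligands that the proteins bind 16 rose and 13 fell with IL-1β, and with SFRP5 relative to IL-1β 13 rose and 10 fell. Tlr2 and Tlr4, receptors of soluble biglycan, rose by 2.36 ± 0.07 and 0.75 ± 0.06 on the log2 scale with IL-1β (SE), and neither was called between the treated groups (adjusted p = 0.117 and 0.6 in edgeR's test). Cd14, their co-receptor, and Cd44, a hyaluronan receptor, rose by 4.45 ± 0.13 and 4.48 ± 0.04 with IL-1β, and with SFRP5 relative to IL-1β Cd44 fell by 1.14 ± 0.03 (SE). Met, a receptor that decorin binds, averaged 78.3 ± 6.05 CPM with IL-1β and SFRP5, 166.6 ± 7.48 CPM with IL-1β and 16.6 ± 0.752 CPM in control (SD, n = 3 each). Tgfb1, bound by decorin, fibromodulin and asporin, rose by 1.34 ± 0.07 with IL-1β, whereas Tgfb3 fell by 2.89 ± 0.08 (SE). Matn3, a matrilin bound by decorin and biglycan and also on the chondrocyte marker list, had the deepest fall of the list, by 4.90 ± 0.09 (SE).

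**Figure D5:**
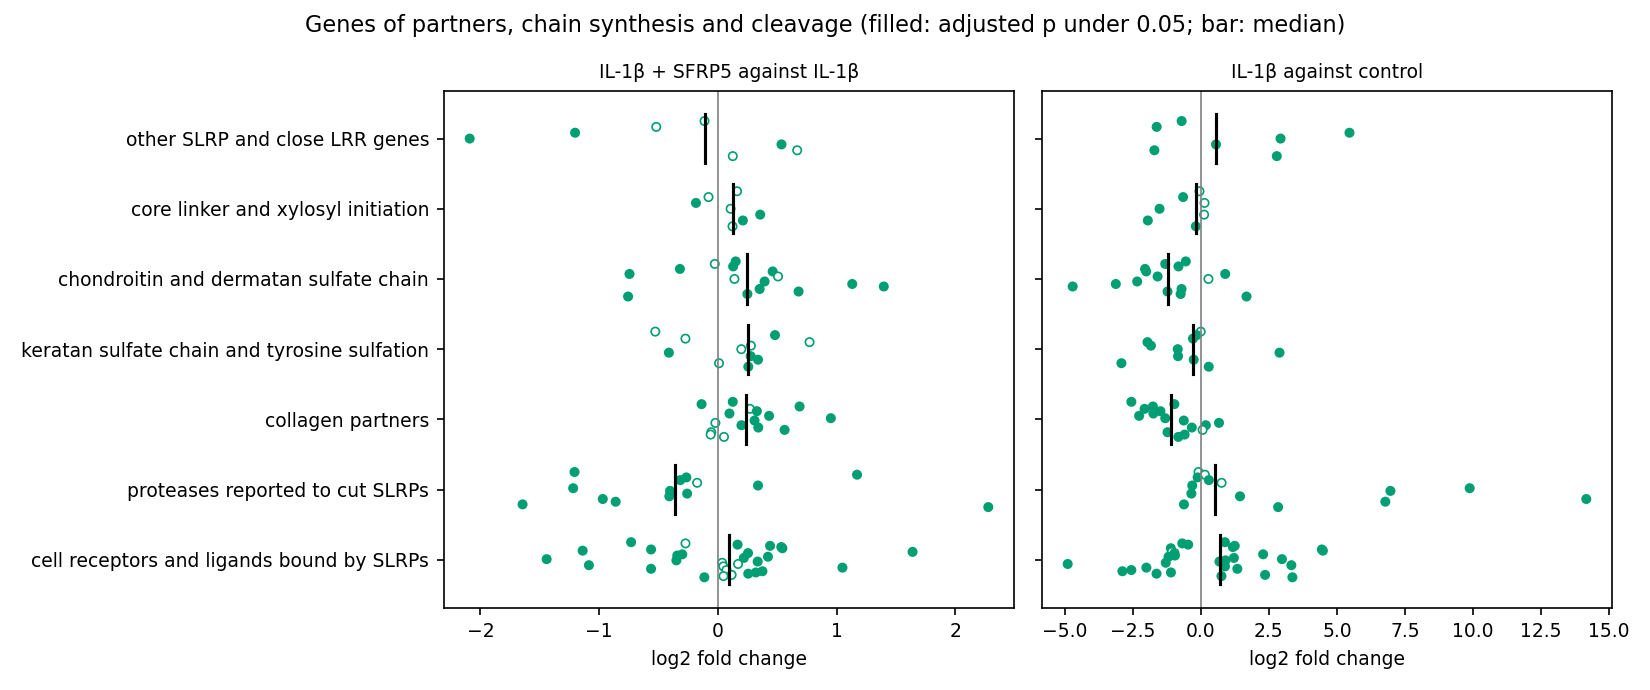
Log2 fold change of each tested gene on the 7 lists of relatives, chain synthesis, collagens, proteases and binding partners, for IL-1β with SFRP5 against IL-1β on the left and IL-1β against control on the right, with filled points called at an adjusted p under 0.05 and a bar at each list's median. The chondroitin and dermatan sulfate list has its median at −1.23 on the right and at 0.25 on the left.

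Several of the members are also made by fibroblasts and tendon cells, so markers of those cells are given beside these results. Of 10 tested fibroblast and synovial lining markers 7 fell and 2 rose with IL-1β relative to control, and with SFRP5 relative to IL-1β 4 rose and 1 fell. Their summed level was 1158 to 1189 CPM with IL-1β and SFRP5, 894 to 950 CPM with IL-1β and 428 to 435 CPM in control, of which Prg4 alone gave 844.5, 475.4 and 65.4 CPM on the mean, in that order. None of the 11 was at 0 in any group. Of 5 tested tendon and ligament markers 4 fell and 0 rose with IL-1β in edgeR's test (0 rose at an unadjusted p under 0.05, and 0 with DESeq2). Their summed level was 144 to 170 CPM with IL-1β and SFRP5, 166 to 189 CPM with IL-1β and 203 to 212 CPM in control. Kera, also listed, had 3 counts in all, so its 0 in the IL-1β libraries says nothing. With SFRP5 relative to IL-1β 1 of the 5 rose and 1 fell. Scx rose by 1.29 ± 0.18 and Egr1 fell by 0.26 ± 0.06 on the log2 scale (SE). With IL-1β and SFRP5 relative to control, Scx was higher by 0.60 ± 0.16 (SE), and 4 of the 5 were lower. The part of such cells in the results was not tested. Osteoblast and osteocyte markers summed to 4.37 to 5.57 CPM with IL-1β and SFRP5, 2.55 to 4.67 CPM with IL-1β and 66 to 72.6 CPM in control, and 5 of 5 tested fell with IL-1β. Omd, which osteoblasts also make, fell beside them, and the part of such cells in its fall was not tested. Sost was at 0 in every group. Macrophage markers summed to 20.1 to 24.8 CPM with IL-1β and SFRP5, 29.3 to 30.6 CPM with IL-1β and 15.9 to 17.5 CPM in control, and adipocyte markers to 20.9 to 23.7 CPM, 23 to 25.6 CPM and 91.8 to 98.3 CPM in the same order. Endothelial and muscle markers reached at most 4.68 and 6.36 CPM in any library.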

How the data were processed

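Gene counts of 9 libraries (3 groups of 3, grouped by the treatment in the sample labels) were analysed. The authors deposited 1 table of whole-number counts, one per gene and library, without scaling. Per the labels' protocols, 150 bp paired reads were trimmed with fastp, aligned to mouse mm10 with STAR and quantified with RSEM, with no versions given, and the step from RSEM's estimates to whole numbers was not stated. A gene length in bases is also listed. Starts in the table differed from RefSeq GRCm38.p6 starts of the same genes by an amount that varied by chromosome (153476 bases for Aspn and Omd, −109174 for Chad), so no table coordinates are printed, and distances were taken within the table only.

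Tests were edgeR 4.0.16 (R 4.3.3): filterByExpr with a minimum count of 10, TMM factors, 1 mean per group, quasi-likelihood test, Benjamini-Hochberg over 15502 genes, call under 0.05. The SE is the log2 change divided by the root of its F statistic and is too small for Aspn, Omd and Ogn against control, where the treated groups are near 0. It was also below counting error alone for some other genes with few counts in a group. Examples are Cd14 (77 counts in control) and Matn3 (188 counts with IL-1β) in IL-1β against control, and Aspn between the treated groups. The common biological coefficient of variation was 4.97%. The script was tested on simulated counts. Libraries within a group differed by more than sampling noise (chi-square of 2.18 to 4.54 per gene). All members were named. From each list the genes named were the 2 largest rises and 2 largest falls called with IL-1β, the 2 lowest p-values called with SFRP5, and genes of known role. The members and lists were chosen with earlier results of these data known. Alternatives were RLE, upper-quartile and no factors, no filter, DESeq2 1.42.0, robust dispersions, fits of 6 libraries, a replicate block and leaving out each library.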

Additional observations from a re-analysis of the deposited data

How the results depend on the processing

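Of the members' log2 changes under the 17 alternatives, 0 of 170 turned direction with IL-1β against control and 2 lost their call (Bgn with library size alone and Chad without IL-1β library 3). Between IL-1β with SFRP5 and IL-1β alone 3 of 170 turned direction, all of members that were not called: Bgn at 0.0603 with library size alone and 0.0092 without SFRP5 library 3, and Fmod at −0.0034 without SFRP5 library 2. In that comparison 11 lost a call and 3 gained one, and against control with SFRP5 1 lost and 4 gained. Leaving out 1 library in turn gave 3 members higher with IL-1β against control, 6 to 7 lower, and 3 to 6 higher with SFRP5 against IL-1β, where Bgn ranged from −0.0437 to 0.0092 and Fmod from −0.0034 to 0.069. Library size alone called 1567 genes lower and 3602 higher with SFRP5 against IL-1β, where TMM factors called 2438 lower and 2420 higher, and 4695 higher and 7755 lower with IL-1β against control, where TMM factors called 5969 higher and 6258 lower. By construction that scaling leaves out the difference in RNA composition between the groups.

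By plain counts the shares of the family with IL-1β and SFRP5, IL-1β and control were 40.2%, 40.3% and 7.4% for Dcn, 34.5%, 36.3% and 34.6% for Bgn, 16.3%, 16.6% and 35.8% for Fmod, and 0.177%, 0.0869% and 12.8% for Ogn. By GENCODE M21 transcript lengths, an alternative chosen after seeing the data, they were 49.96%, 49.94% and 10.9% for Dcn, 31.2%, 32.7% and 37.1% for Bgn, 11.4%, 11.6% and 29.8% for Fmod, and 0.15%, 0.0738% and 12.9% for Ogn. The lengths alone make this difference.

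The labels number the libraries 1 to 3 in each group without saying what a number marks. Same-numbered libraries did not deviate together (r of −0.04 to 0.04, against −0.04 to 0.06 for other pairs). With the replicate number as a block, 3 members were higher and 7 lower with IL-1β against control, 6 higher and 0 lower with SFRP5 against IL-1β, and 3 higher and 5 lower with SFRP5 against control, and 5937 of all genes were higher and 6214 lower with IL-1β. These counts of members equalled those of the fit without a block. There, 15.6% of all tested genes were called higher and 15.7% lower with SFRP5 against IL-1β. With SFRP5 against control the shares were 37.3% and 39%. At the depths here Aspn and Omd had 4 to 34 counts in each treated library, which limits what can be said of their difference between the treated groups.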

Other observations

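Chil1, which encodes a chitinase-like protein secreted by chondrocytes and lies 285 kb from Optc on the chromosome of Prelp and Fmod, was at 3704 ± 167 CPM with IL-1β and SFRP5, 3555 ± 195 CPM with IL-1β and 26 ± 0.658 CPM in control (SD, n = 3 each). It rose by 7.09 ± 0.05 on the log2 scale with IL-1β (SE, adjusted p = 3.11e-33 in edgeR's test) and was not called between the treated groups (log2 0.06 ± 0.04 SE, adjusted p = 0.251 in edgeR's test). It was named after its values were seen.

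Among the proteases listed for the family, Adamts5, an aggrecanase, averaged 146.1 ± 15.7 CPM with IL-1β and SFRP5 and 64.8 ± 5.64 CPM with IL-1β (SD, n = 3 each), a log2 rise of 1.17 ± 0.07 (SE, adjusted p = 2.72e-13 in edgeR's test). Adamts4, the related aggrecanase, averaged 2.3 ± 0.358 CPM with IL-1β and SFRP5 and 5.35 ± 0.908 CPM with IL-1β (SD, n = 3 each), a log2 fall of 1.21 ± 0.19 (SE, adjusted p = 2.27e-05 in edgeR's test). In control Adamts5 averaged 58.7 ± 2.29 CPM and Adamts4 5.7 ± 0.463 CPM (SD, n = 3 each). Neither was called with IL-1β relative to control (adjusted p = 0.0548 for Adamts5 and 0.633 for Adamts4 in edgeR's test).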
